A study of Mus musculus with 2 samples.

Results

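The genes described here are 9 regulators of primitive and definitive endoderm: Gata4, Gata6, Sox17, Sox7, Foxa2, Dab2, Pdgfra, Hnf4a and Hhex. They were chosen by gene name, as every non-control probe of the array that carries one of these names, which gave 19 of 56605 probes and 9 of 37074 gene names. RNA levels were read in 46C cells, a line of mouse embryonic stem cells that carries a fluorescent reporter at Sox1. The shLincU cells carried a short hairpin against LincU, a long noncoding RNA, and the shCtrl cells a control hairpin, per the genotype label. By title, however, the shCtrl sample is WT, with no hairpin named. Both cultures were grown in 15% serum with LIF at 1000 U/ml on feeder cells, which were taken off before harvest. Each group has 1 one-colour array, so no difference below has a replicate check or a p-value, and the number of arrays limits the precision. By its title, the study asks about LincU, naive pluripotency and ERK activity. No probe carries the name LincU, so the knockdown was not checked here and the directions rest on the labels.

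Primitive endoderm is the extraembryonic layer that separates from the epiblast in the blastocyst, where FGF signalling through ERK favours it and the epiblast keeps NANOG. GATA6 acts first, followed by PDGFRA, SOX17, GATA4 and SOX7, and its descendants form visceral and parietal endoderm. Definitive endoderm arises later, at gastrulation, from cells that switch on FOXA2 and SOX17 under NODAL. Embryonic stem cell cultures in serum can hold a few cells that express primitive endoderm genes. In bulk RNA, fewer cells of a type and less RNA per cell cannot be told apart.

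The probes are 60 bases long, and probes of one gene did not all give a signal. The sequences of 5 of them are shown because probes of the same gene fell on opposite sides of the background limit, or because a probe of Hnf4a gave no signal. The order is 5′ to 3′, and the positions are those the array files give, in build mm9.
Sox17, A_51_P273667: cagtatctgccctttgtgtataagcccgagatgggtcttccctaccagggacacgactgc
Sox17, A_55_P2728222: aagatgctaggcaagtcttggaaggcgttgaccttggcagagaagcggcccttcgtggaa
Dab2, A_55_P2639170: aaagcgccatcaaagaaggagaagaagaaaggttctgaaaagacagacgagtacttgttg
Dab2, A_52_P17534: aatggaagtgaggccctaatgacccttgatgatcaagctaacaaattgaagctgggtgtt
Hnf4a, A_52_P69656: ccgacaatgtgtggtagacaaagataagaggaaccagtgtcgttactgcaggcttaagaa

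The first Sox17 probe lies at chr1:4481890-4481949 on the reverse strand and was well above background on both arrays, which is the scanner software's flag for a detected spot. The second lies at chr1:4482700-4483190 on the same strand, spans 491 bases of genome and so crosses an exon junction, and was below that limit on both arrays. Both have 55% G and C. The first Dab2 probe lies at chr15:6366964-6368258 on the forward strand across an exon junction and was above the limit on both arrays. The second, at chr15:6374197-6374640, also crosses a junction and was below it on both. The Hnf4a probe at chr2:163378302-163378361, on the forward strand, was below it on both arrays. G and C content ranged from 35% to 55% in the 8 member probes above the limit on both arrays and from 35% to 58.3% in the 9 below it on both.

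Most of the endoderm regulators were near the detection limit on both arrays. Of the 19 probes, 8 were well above background on both arrays, 2 on the shCtrl array alone and 9 on neither. The 9 genes divided into 7 measured on both arrays by at least 1 probe, and Hnf4a and Pdgfra, measured on the shCtrl array alone. The lowest signal well above background differed between arrays, at 20.7 intensity units for shLincU and 23.8 for shCtrl. Relative to the 75th percentile of each array, which was 420.2 units for shLincU and 626 for shCtrl, these are log2 values of -4.34 for shLincU and -4.72 for shCtrl. A dim gene was therefore harder to detect on the shLincU array. The lowest signal is not a fixed cutoff, since an Hnf4a spot at 20.8 units on the shLincU array was not marked well above background. Negative control spots, which match no mouse transcript, reached 48.0 units with shLincU RNA and 69.7 units with shCtrl RNA. Of the 308 such spots, 8 were marked above background with shLincU RNA and 4 with shCtrl RNA. Only 5 of the 19 member probes were brighter than the brightest of them for shLincU, and 4 for shCtrl. These were probes of Gata6, Sox17, Dab2 and Hhex on both arrays, and of Gata4 on the shLincU array alone.

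**Figure D1:**
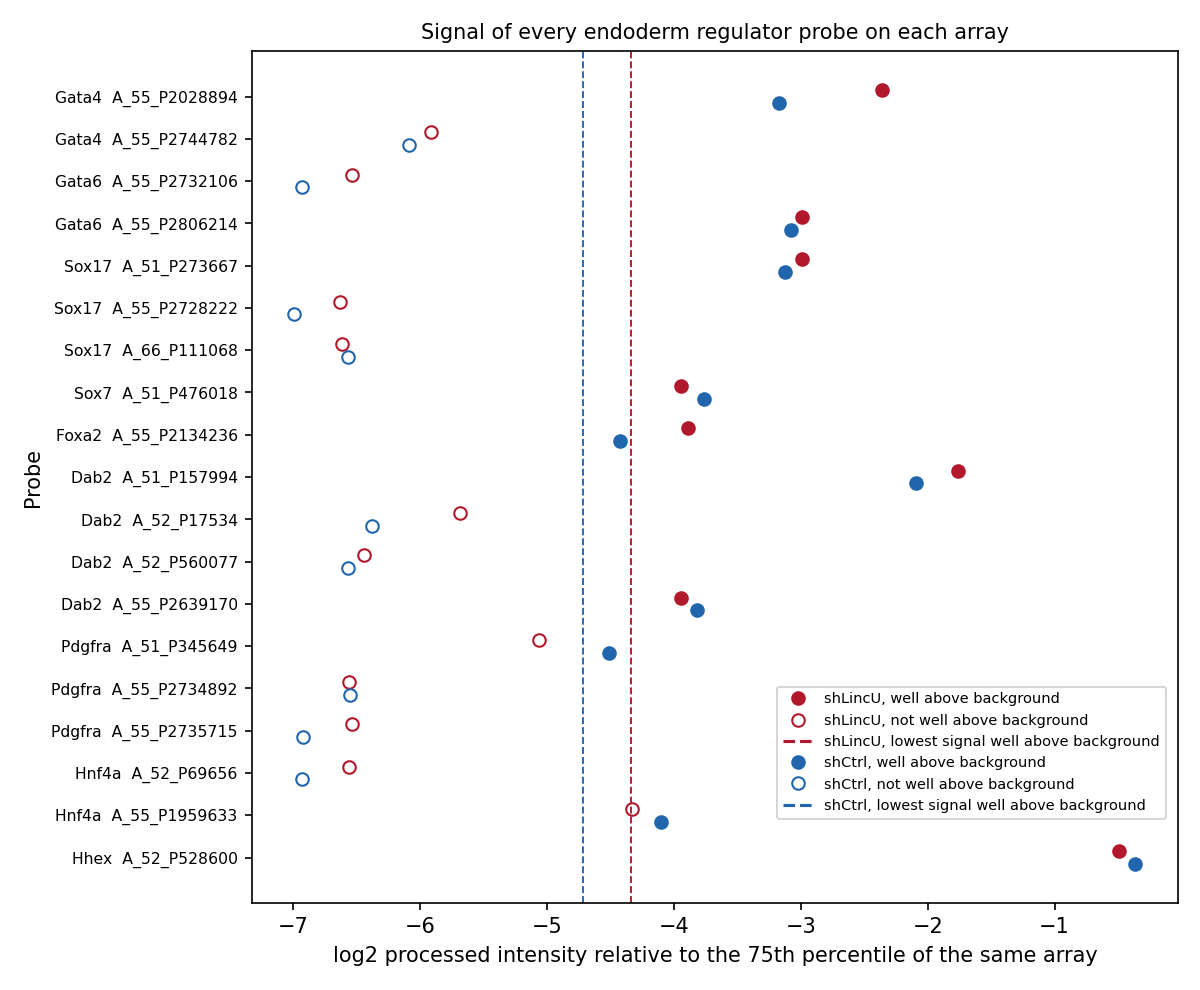
Log2 processed intensity of each of the 19 probes, relative to the 75th percentile of the same array, on the shLincU (red) and shCtrl (blue) arrays, 1 array each. Filled points were well above background and open points were not; dashed lines mark the lowest signal well above background, at -4.34 for shLincU and -4.72 for shCtrl, and 9 probes lie below them on both.

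No endoderm regulator measured on both arrays differed by as much as 2-fold. Of the 7, 0 were higher and 0 lower by that much in shLincU cells, where 1.14% of all 21018 genes measured on both arrays were higher and 1.53% lower. Both counts are near that background. All differences are log2 values of the intensity divided by the array's 75th percentile, shLincU minus shCtrl, given with the error that the scanner software assigns. That error holds a preset share of the signal, is larger for dim spots, and is not a spread between cultures. In the shLincU cells 5 of the 7 were higher and 2 lower, with a median of 0.10, beside a median of 0.020 over all genes. The 5 include Foxa2, which could pass the background filter only with a higher value in shLincU cells. Over all genes 53.1% were higher. At 1.5-fold, 1 member was higher and 0 were lower, where 4.78% and 4.84% of all genes were.

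Among the GATA factors, Gata4 and Gata6 gave unlike values. Gata4, a transcription factor of primitive endoderm and later of heart and gut, gave 82.0 intensity units in shLincU cells and 69.5 in shCtrl cells at its brighter probe, chr14:63817858-63817917 on the reverse strand. It was the only one of the 8 member probes measured on both arrays whose intensity was higher in shLincU cells before scaling. Its shCtrl reading, however, lies just below the brightest negative control spot of that array, at 69.7 units. After scaling its log2 levels were -2.36 in shLincU cells and -3.17 in shCtrl cells, a difference of 0.81 ± 0.25, which is 1.76-fold. This was the widest difference of any member, and the error range of 0.56 to 1.06 reaches past 2-fold. Of the 2867 genes within 0.5 log2 of its level, the central 95% lay between -1.15 and 1.0, so Gata4 stayed inside the range of genes of like brightness. Its other probe, chr14:63860003-63860062, read 6.98 units in shLincU cells and 9.22 in shCtrl cells, below the limit on both arrays. With that probe taken in, under the weaker flag for a positive and significant signal, Gata4 was at 0.49 ± 0.62. That difference is smaller than its error.

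Gata6, which acts upstream of the other members in primitive endoderm, read 53.0 units in shLincU cells and 74.2 in shCtrl cells at one probe. Its log2 levels were -2.99 in shLincU cells and -3.08 in shCtrl cells, a difference of 0.089 ± 0.26. The difference was smaller than its error. A further probe of Gata6, matched to a cDNA clone, read 4.53 units in shLincU cells and 5.12 in shCtrl cells and was below the limit on both arrays.

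The SOX factors of the same subfamily also stayed close to 0. Sox17, required for endoderm formation in the mouse, read 53.0 units in shLincU cells and 71.6 in shCtrl cells at the first probe shown above. Its log2 difference was 0.14 ± 0.26, from levels of -2.99 in shLincU cells and -3.13 in shCtrl cells. The other Sox17 probes were below the limit, at 4.24 and 4.28 units in shLincU cells and 4.92 and 6.58 units in shCtrl cells. The last of these, A_66_P111068 at chr1:4487611-4487670, lies on the strand opposite to the other Sox17 probes.

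Sox7, a marker of parietal endoderm that endothelial cells also use, read 27.4 units in shLincU cells and 46.1 in shCtrl cells at chr14:64569419-64569478 on the forward strand. Its log2 levels were -3.94 in shLincU cells and -3.76 in shCtrl cells, a difference of -0.18 ± 0.34. With normexp background correction, which models the background in place of subtracting it, Sox7 was at 0.27, so its direction is not settled.

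Foxa2, a forkhead factor of definitive endoderm and node, read 28.3 units in shLincU cells and 29.2 in shCtrl cells at chr2:147868669-147868728 on the reverse strand. Both readings lie below the brightest negative control spot of their array. Scaling moved the log2 levels to -3.89 in shLincU cells and -4.42 in shCtrl cells, a difference of 0.53 ± 0.38, which is 1.45-fold. The shCtrl level lies below -4.34, the lowest signal well above background on the shLincU array. Foxa2 could therefore be measured on both arrays only with a higher value in shLincU cells. Its direction is not settled. The central 95% of the 1480 genes within 0.5 log2 of its level lay between -0.60 and 1.01.

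Dab2, an endocytic adaptor of primitive and visceral endoderm, was the only member with more than 1 probe measured on both arrays, and those probes differed in sign. A_51_P157994 at chr15:6389424-6389483 read 124 units in shLincU cells and 147 in shCtrl cells, a log2 difference of 0.33 ± 0.22. A_55_P2639170, shown above, read 27.3 units in shLincU cells and 44.3 in shCtrl cells, a log2 difference of -0.12 ± 0.38. The mean over both was 0.10 ± 0.22. A_52_P17534 read 8.16 units in shLincU cells and 7.52 in shCtrl cells, and A_52_P560077 read 4.83 units in shLincU cells and 6.58 in shCtrl cells. Those lay below the limit on both arrays.

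Hhex, a homeobox factor of anterior visceral endoderm and liver bud, lay well clear of background on both arrays. It read 299 units in shLincU cells and 487 in shCtrl cells at chr19:37514969-37515028 on the forward strand. The log2 levels were -0.49 in shLincU cells and -0.36 in shCtrl cells, a difference of -0.13 ± 0.21. The central 95% of the 2847 genes within 0.5 log2 of its level lay between -0.75 and 0.63, so a 2-fold difference would have stood outside that range.

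Pdgfra and Hnf4a were not measured on both arrays. Pdgfra, the PDGF receptor that marks primitive endoderm cells and also fibroblasts, read 12.6 units in shLincU cells, not well above background, and 27.4 units in shCtrl cells, just above it, at chr5:75593888-75593947 on the forward strand. The shCtrl level of -4.51 lies below the shLincU limit of -4.34, so these readings give no fold. Both other Pdgfra probes were below the limit on both arrays, at 4.46 and 4.51 units in shLincU cells and 6.68 and 5.14 units in shCtrl cells.

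Hnf4a, a nuclear receptor of visceral endoderm and liver, read 20.8 units in shLincU cells, not well above background, and 36.3 units in shCtrl cells at chr2:163398548-163398607 on the forward strand. Its log2 levels were -4.33 in shLincU cells and -4.11 in shCtrl cells, a difference of -0.23 ± 0.44. Taken at face value this makes it 1.17-fold lower in shLincU cells, but that difference is smaller than the scanner error and gives no settled direction. Its probe A_52_P69656, shown above, read 4.45 units in shLincU cells and 5.13 in shCtrl cells.

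**Figure D2:**
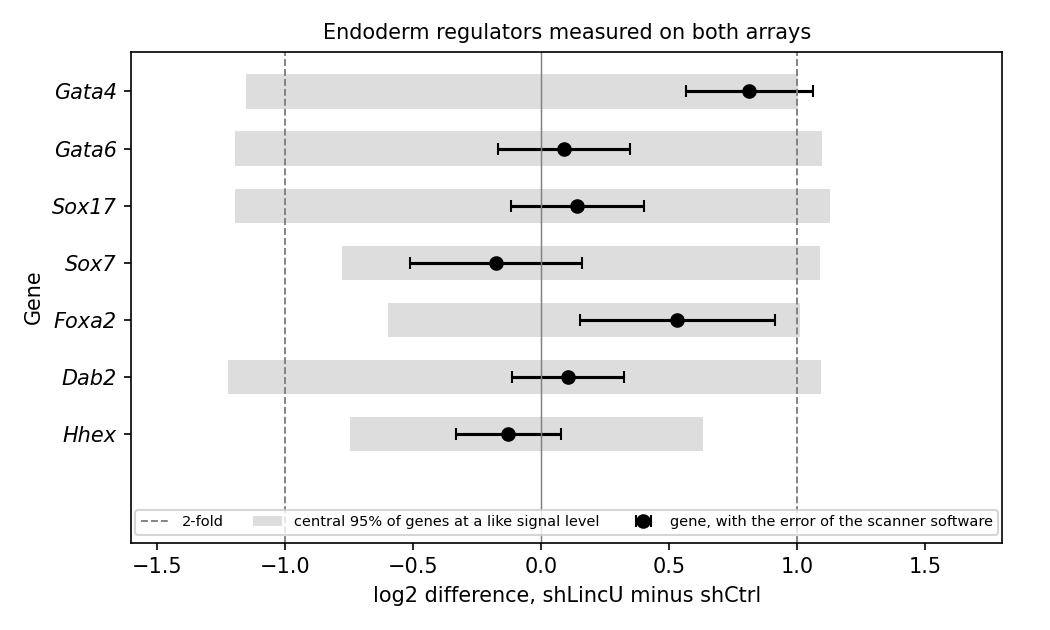
Log2 difference, shLincU minus shCtrl, of the 7 endoderm regulators measured on both arrays (points), with the error of the scanner software (bars) and the central 95% of differences of genes within 0.5 log2 of the same level (grey). All 7 points lie inside the 2-fold lines and the grey ranges; Gata4 at 0.81 and Foxa2 at 0.53 lie furthest from 0.

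At the signal level of the 6 dim members (all measured ones but Hhex), genes differed more often than on the whole array. Of 5422 genes at that level, 2.82% were higher and 2.75% lower by 2-fold or more in shLincU cells. At 1.5-fold, 9.89% were higher and 7.69% lower. Gata4, the only member past 1.5-fold, thus belonged to a share of 9.89% of genes at that level.

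Gata4, Gata6 and Foxa2 lay in the lower rows of the slide, and Sox17, Sox7, Dab2 and Hhex in the upper rows. Differences of 2-fold or more between shLincU and shCtrl were found at 4.01% of spots among the lower rows and at 1.33% among the upper rows. These shares are over all non-control spots but outliers, with or without a signal above background. Signals under the array's lowest signal well above background were first raised to it. No member spot lay beside a cluster of such spots. The Gata4 spot lay in the first column of the grid, where the median difference of the 194 measured spots was 0.091, against 0.031 over all measured spots. With the median of the measured spots around it subtracted, Gata4 was at 0.72 and Foxa2 at 0.50.

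Products and partners of the endoderm programme were read in 6 lists. For primitive and parietal endoderm products, mostly basement membrane proteins and other secreted or surface proteins, 14 of 16 genes were measured on both arrays. Of these 4 were higher and 10 lower, with 0 past 2-fold in either direction and a median of -0.13. Srgn (0.21) and Lamb1 (0.19), a proteoglycan core protein and a laminin chain, were the highest. Pth1r, the parathyroid hormone receptor of parietal endoderm, was the lowest at -0.94, followed by the collagen Col4a1 at -0.45. Plat and Thbd were above background in shCtrl cells alone, with bounds under 2-fold.

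Among visceral endoderm products, the plasma proteins Afp, Ttr, Apoa1, Apoa4 and Fgb were below background on both arrays, Apob was above it in shCtrl cells alone, and 9 of 15 genes were measured on both. Of those 5 were higher and 4 lower, 0 passed 2-fold and the median was 0.0022. Ihh (0.35), a hedgehog ligand, and the forkhead gene Foxq1 (0.15) were highest. The apolipoprotein gene Apom (-0.76) and the transferrin gene Trf (-0.48) were lowest.

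For definitive endoderm and its induction, 12 of 15 genes were measured on both arrays, with 6 higher, 6 lower, 0 past 2-fold and a median of -0.0040. Tmprss2 (0.97), a surface protease gene, and Lhx1 (0.92), a factor of the anterior mesendoderm, were highest. Each was dim and rests on 1 probe, of 2 for Tmprss2 and of 3 for Lhx1. In shCtrl cells Lhx1 was at -3.87 and Tmprss2 at -4.26. The Tmprss2 level is just above -4.34, the lowest signal well above background on the shLincU array. The background filter thus left Tmprss2 little room for a lower value in shLincU cells. Otx2 (-0.37) and Nodal (-0.35), a head organiser factor and the inducing ligand, were lowest. The only Nodal probe lies on a spot beside other discordant spots. Mixl1, a homeobox gene of the primitive streak, was above background in shLincU cells alone, with a bound of 3.03-fold higher there. That bound rests on 1 probe and has no scanner error, and the lowest signal well above background is not a fixed cutoff. Cer1 was below background on both arrays and Cxcr4 was above it in shCtrl cells alone. Foxa1 and Foxa3, the relatives of Foxa2, were at -0.15 and -0.19.

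In the hepatic and gut network, 5 of 10 genes were measured on both arrays, 2 higher and 3 lower, with 0 past 2-fold and a median of -0.38. Pdx1 (0.41) and Nr5a2 (0.35) were highest. Onecut1 (-0.88) and Cdx1 (-0.38) were lowest. Alb and Nkx2-1 were below background on both arrays, and Prox1 and Cebpa were above it in shCtrl cells alone.

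Relatives and partners of the members also went both ways. Of 12 genes 11 were measured on both arrays, with 5 higher, 6 lower, 0 past 2-fold and a median of -0.066. Gata3 (0.46), a factor of trophoblast, and the receptor gene Pdgfrb (0.43) were highest, and Gata5, a further endoderm GATA factor, was at 0.42. Sox18 (-0.77), the third gene of the subfamily of Sox7 and Sox17, and Zfpm1 (-0.52), a cofactor of GATA proteins, were lowest. Hnf4g was above background in shCtrl cells alone.

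The FGF and ERK input to primitive endoderm was measured in full, at 12 of 12 genes, with 10 higher, 2 lower, 0 past 2-fold and a median of 0.19. Dusp4 (0.87), an ERK phosphatase gene, and Fgfr2 (0.56), a receptor that primitive endoderm cells express, were highest. Spry4 (-0.44), a feedback inhibitor, and Sos1 (-0.11), a RAS activator, were lowest. The ligand gene Fgf4 was at 0.061.

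**Figure D3:**
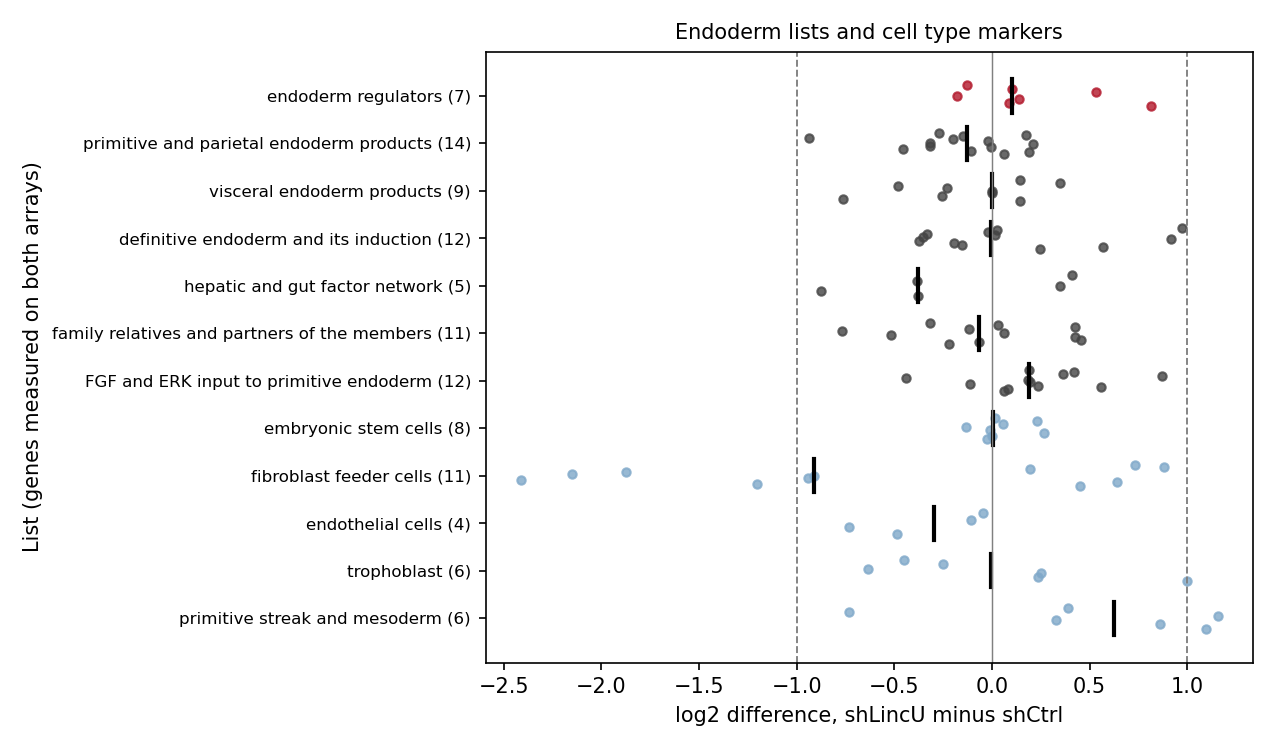
Log2 difference, shLincU minus shCtrl, of each gene measured on both arrays (points) in the endoderm regulators (red), 6 endoderm lists (dark grey) and 5 lists of cell type markers (blue), with the median as a black bar and dashed lines at 2-fold. The endoderm regulators have their median at 0.10 and no point past 2-fold, while the feeder cell markers spread from -2.41 to 0.88.

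Markers of the cells that the cultures could hold were read alongside. All 8 embryonic stem cell markers were measured on both arrays and none passed 2-fold, with a median of 0.0073. The highest were Nanog (0.27) and Dppa5a (0.23), and the lowest Esrrb (-0.13) and Pou5f1 (-0.025). The 2 probes of Nanog differed in sign, at -0.26 and 0.79, so its mean gives no settled direction. Probes also differed in sign for Esrrb and, among the genes named here from other lists, for Srgn, Otx2, Sos1 and Flt1. The summed level of the stem cell markers, in units of each array's 75th percentile, was 838 in shLincU cells and 738 in shCtrl cells. Without Dppa5a, the brightest, the other 7 summed to 154 in shLincU cells and 155 in shCtrl cells.

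Fibroblast markers bear on the members because fibroblasts also express Pdgfra. Of 12 feeder markers 11 were measured on both arrays, with 5 higher and 6 lower and a median of -0.91. Past 2-fold there were 0 higher and 4 lower. The lowest were Dcn (-2.41) and Lox (-2.15) and the highest Tagln (0.88) and Col5a1 (0.73). Lum was above background in shLincU cells alone, with a bound of 2.32-fold higher from 1 probe, on a spot beside other discordant spots. The summed level was 41.8 in shLincU cells and 32.8 in shCtrl cells. Without Tagln, the brightest, it turned the other way, at 11.7 in shLincU cells and 16.5 in shCtrl cells. Their part in the member values was not tested.

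Of 8 endothelial markers, Cdh5, Tie1, Erg and Emcn were below background on both arrays, and the 4 measured were all lower, with a median of -0.30. They ranged from Kdr (-0.73) and Pecam1 (-0.49) to Tek (-0.11) and Flt1 (-0.045), and their summed level was 1.01 in shLincU cells and 1.31 in shCtrl cells. Without Pecam1, the brightest, it was 0.651 in shLincU cells and 0.811 in shCtrl cells. Among the members that endothelial cells also express, Sox7 was at -0.18, Hhex at -0.13 and Sox17 at 0.14. Each of these differences was smaller than its error. Of 8 trophoblast markers 6 were measured, 3 higher and 3 lower, with a median of -0.0070. Their summed level was 26.6 in shLincU cells and 35.8 in shCtrl cells, and without Gcm1, the brightest, 8.43 in shLincU cells and 7.57 in shCtrl cells. Cdx2 (1.0) and Hand1 (0.25) were highest, and Gcm1 (-0.64) and Prl3d1 (-0.45) lowest. Elf5 and Tpbpa were below background on both arrays.

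Primitive streak and mesoderm markers were measured at 6 of 8 genes, with 5 higher and 1 lower, 2 at least 2-fold higher and a median of 0.63. The 5 include Mesp1 and Foxf1, with shCtrl levels of -4.47 and -4.60. Both levels lie below -4.34, the lowest signal well above background on the shLincU array. Like Foxa2, these genes could be measured on both arrays only with a higher value in shLincU cells. The median lies between their differences, 0.86 for Mesp1 and 0.39 for Foxf1. Evx1 (1.16) and T (1.1) were highest, and Kdr (-0.73) and Tbx6 (0.33) lowest. Mixl1 was above background in shLincU cells alone and Hand2 was below it on both arrays. The summed level was 2.92 in shLincU cells and 1.67 in shCtrl cells, and without T, the brightest, 1.41 in shLincU cells and 0.958 in shCtrl cells. Beside these, Gata4 was higher at 0.81, while Gata6 at 0.089 and Sox17 at 0.14 differed by less than their errors. Foxa2 was at 0.53, a direction that the background filter fixed in advance. Whether the same cells carried these differences was not tested.

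The directions above are relative to the bulk of each array. Scaled to 8 E1A spike-in controls, RNAs added to each sample in fixed amounts, all genes moved by -0.89. On that scale Gata4 was at -0.079, Foxa2 at -0.36 and Hhex at -1.02. The bounds of Mixl1 and Lum, 1.60 and 1.21 in log2, become smaller by the same shift. The order of the members is the same on both scales, since the shift is common to all genes.

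**Figure D4:**
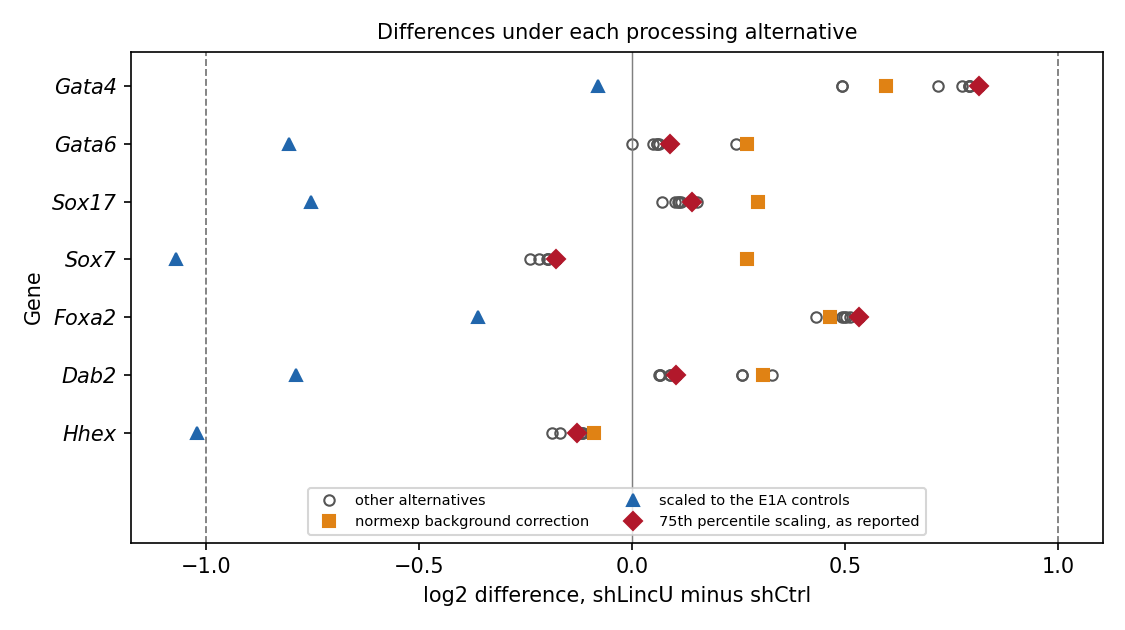
Log2 difference, shLincU minus shCtrl, of the 7 endoderm regulators as reported (red diamonds), with normexp background correction (orange squares), scaled to the E1A controls (blue triangles) and under the other alternatives (open circles); dashed lines mark 2-fold. Gata4 lies between 0.49 and 0.81 and Foxa2 between 0.43 and 0.53 in all settings but E1A scaling, and Sox7 turns from -0.18 to 0.27 with normexp. The Gata4 value of 0.49 is smaller than its error of 0.62.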

How the data were processed

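Cy3-labelled RNA of 1 shLincU and 1 shCtrl sample was hybridised to one-colour Agilent arrays. The submitters' processing notes name Agilent Feature Extraction 10.7.1.1, with which the authors made the intensity values. The processed intensity was background-subtracted and detrended, per the file headers. Other deposited columns are flags set by that software. The deposited value table holds log2 values with equal quantiles in both columns (median 5.65) and a slope of 1.00 to 1.01 on log2 of the scanner values; its centring is unknown.

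Here log2 of the processed intensity was taken minus the 75th percentile over probes. Outlier spots (202) were left out, and spots of a probe were averaged. Genes took the average of those probes that both arrays measured well above background; otherwise the bound was taken against the higher of the lowest signal above background and the probe's own. No spot was saturated (0). Probes were named through RefSeq of GRCm38 (32994 by accession, 10224 by symbol, 520 by synonym; 12867 kept the array's name), and members by the array's name; both gave the same 19 probes. With 1 array per group no test was made, and the calculation was checked on simulated data.

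The members and lists were chosen with earlier results of these data known. One listed gene is not reported here by name. All members were named, and from each list the 2 highest and 2 lowest genes and those with a bound of at least 2-fold. Gata5, Foxa1, Foxa3, Fgf4, Mesp1, Foxf1 and the genes below background were added after their values were seen. Alternatives were normexp (offset 50), quantile, cyclic loess, median and E1A scaling, the deposited table, other background filters, other summaries over probes, outliers kept, the upper or lower 192 of 384 rows, no spots beside discordant spots (at least 2 of 14 neighbours differing 2-fold in the same direction), and 1.5-fold or 3-fold. Centring on spots within 10 rows and columns, and marker sums without each list's brightest gene, were added after seeing the data. Python 3.11.15, numpy 2.4.6, pandas 2.3.3, R 4.3.3 and limma 3.58.1 were used.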

Additional observations from a re-analysis of the deposited data

How the results depend on the processing

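No paired analysis was possible because shLincU and shCtrl have 1 array each, so that no array could be left out either. Under the alternatives no member passed 2-fold, except that Sox7 (-1.07) and Hhex (-1.02) did with E1A scaling, which gave 2 members lower; at 1.5-fold 1 member was higher, and at 3-fold 0. E1A scaling moved all medians by the same shift, to -0.79 for the members, -1.02 for primitive and parietal, -0.89 for visceral and -0.90 for definitive endoderm, -1.27 for the hepatic network, -0.96 for relatives and partners and -0.70 for the FGF and ERK input. The members' median was 0.53 in the lower rows, over the 3 members there, and -0.012 in the upper rows, over the other 4, where its sign turns. The value in the lower rows is that of Foxa2, whose direction the background filter fixed in advance. The hepatic value in the lower rows was 0.41, from 1 gene, Pdx1. The visceral median was -0.23 with the brightest probe and in the upper rows. Fewer genes are read within either part of the rows, and otherwise the cause was not tested. Among the single members, apart from E1A scaling, Sox7 alone changed sign, to 0.27 with normexp. List medians close to 0 also turned. With normexp, definitive endoderm was at 0.073 and relatives and partners at 0.082. With quantile normalization, visceral endoderm was at -0.0062. Gata4 was at 0.49 ± 0.62 without a background filter, and Dab2 was at 0.33 with its brightest probe. Without a background filter the median of all genes was 0.14. The low signals limit the values: only 8 of 19 member probes were well above background on both arrays.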
